A study of Caenorhabditis elegans with 6 samples.

Results

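Cytochrome P450 genes were examined in adult Caenorhabditis elegans after RNA interference (RNAi, here by feeding worms bacteria that make double-stranded RNA). All loci whose symbol begins with cyp- and a digit were taken, which gave 67 rows and 65 symbols among 15796 rows. Of these, 58 genes carried the same gene name and locus in all 7 deposited tables, and 48 reached a mean of at least 1 FPKM and were tested, among 13342 loci tested in all. The other 10 lay under that mean, 7 further genes had labels that differed between tables, and 2 rows were second loci of genes already counted. The genes were grouped by the number in their name, which gives the P450 family, into 13 families.

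The study set worms fed RNA against prx-5, which encodes the import receptor of most peroxisomal matrix enzymes, beside control worms fed RNA against tag-208 (sorb-1 in the gene names). Each group had 3 biological replicates of whole adult worms of the wild-type strain Bristol N2. In both groups RNAi began in L4 larvae kept at 20 °C on plates with 6 mM IPTG, and their adult offspring were harvested. No genotype other than wild type was used, both groups had a targeted gene, and no worms without RNAi were among the samples.

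The RNA of prx-5 was not lower in the libraries labelled prx-5 RNAi. FPKM are fragments scaled by transcript length and by how many fragments the library had mapped. The prx-5 RNA measured 14.9, 21.3 and 23.5 FPKM in the libraries labelled prx-5 RNAi, against 4.48, 4.73 and 3.50 FPKM in those labelled tag-208 RNAi. Its log2 fold change was 1.98 ± 0.22 (SE), with a limma adjusted p of 0.00868, which is not the direction a knockdown would give. Whether the group labels were exchanged, or whether reads of the fed double-stranded RNA add to this value, was not tested. The RNA of sorb-1 averaged 18.03 ± 6.60 FPKM in libraries labelled prx-5 RNAi and 10.5 ± 3.11 FPKM in those labelled tag-208 RNAi (SD, n = 3 each), and did not pass the test (adjusted p = 0.232). All directions below are therefore those of the labels, and the groups are called the prx-5-labelled and tag-208-labelled libraries.

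Cytochromes P450 are heme enzymes that insert an oxygen atom into fatty acids, sterols and foreign compounds. Those in the endoplasmic reticulum take electrons from the P450 reductase, which is EMB-8 in C. elegans. The worm families fall into groups resembling vertebrate CYP2 (cyp-14, cyp-33, cyp-34, cyp-35 and cyp-36), CYP3 (cyp-13, cyp-25 and cyp-43) and CYP4 (cyp-29, cyp-31, cyp-32, cyp-37 and cyp-42). In worms they are known for clearing drugs and toxins, largely in the intestine, for making signalling lipids from polyunsaturated fatty acids, and for making a lipid layer of the eggshell.

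The number of reads per library was unknown, and depth relative to tag-208-labelled replicate 1, read from the spacing of low values, ranged from 0.768 to 1.27. Markers of the tissues that whole adults hold were measured in both groups. Of 9 tested intestine markers 8 rose, against 7.5% of all loci, and the median over the 9 was 1.47 on the log2 scale. Their summed FPKM was 2912, 5911 and 5657 in the prx-5-labelled libraries, against 832, 1321 and 857 in the tag-208-labelled libraries. The remaining marker, mtl-1, had groups that overlapped. None of 8 germline, 6 oocyte and eggshell, 6 sperm, 6 body wall muscle, 4 pharynx, 5 neuron and 3 excretory cell markers passed limma, and of 6 epidermis markers 1, the adult collagen col-19, fell. At an unadjusted p under 0.05, 1 of those 38 genes was higher and 7 were lower, 4 of them body wall muscle markers. The authors' deposited table marked 1 of the 38 as higher and 8 as lower. Of the 6 epidermis markers, 4 had a log2 fold change above 0 (median 0.27). At the same unadjusted p, 0 of these 6 were higher and 1 lower, and the authors' deposited table marked 2 as higher and 1 as lower. Over all loci tested, 17.5% were higher and 4.45% lower at that unadjusted p, and the authors' deposited table marked 8.72% of its loci as higher and 4.21% as lower. The part that the intestine signal has in the P450 values was not tested, and in whole worms more cells of a type and more RNA per cell cannot be told apart.

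More P450 genes rose than fell in the prx-5-labelled libraries. Of the 48 tested genes, 10 rose (20.8%), 1 fell (2.08%) and 37 did not pass at a limma adjusted p under 0.05. Over all loci tested, 7.5% rose and 1.2% fell, 8.69% in either direction. With quantile normalization 7 P450 genes rose and 2 fell, and of all loci 531 rose and 240 fell, against 1000 and 160 without it. The genes that rose were cyp-13A5, cyp-13A7, cyp-13A12, cyp-32B1, cyp-33C4, cyp-33C7, cyp-33C8, cyp-33C9, cyp-33E2 and cyp-37A1, and cyp-34A8 fell. The median log2 fold change (prx-5-labelled minus tag-208-labelled, on log2(FPKM + 1), which understates changes at low levels) was 0.46 over the 48 genes and 0.04 over all loci. The 3 prx-5-labelled values lay above all 3 tag-208-labelled values in 22 of the 48 genes and below them in 4, against 21.2% and 5.77% of all loci (26.9% in either direction). Of the tested genes, 9 had a mean under 1 FPKM in the tag-208-labelled libraries and passed the filter through the prx-5-labelled ones. Among them were the called cyp-13A7, cyp-13A12 and cyp-32B1. All 9 had a log2 fold change above 0, and they gave 8 of the 22 genes with prx-5-labelled values on top. The filter favoured that direction in them. In 1 tested gene, cyp-34A10, the mean was under 1 FPKM in the prx-5-labelled libraries instead.

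**Figure D1:**
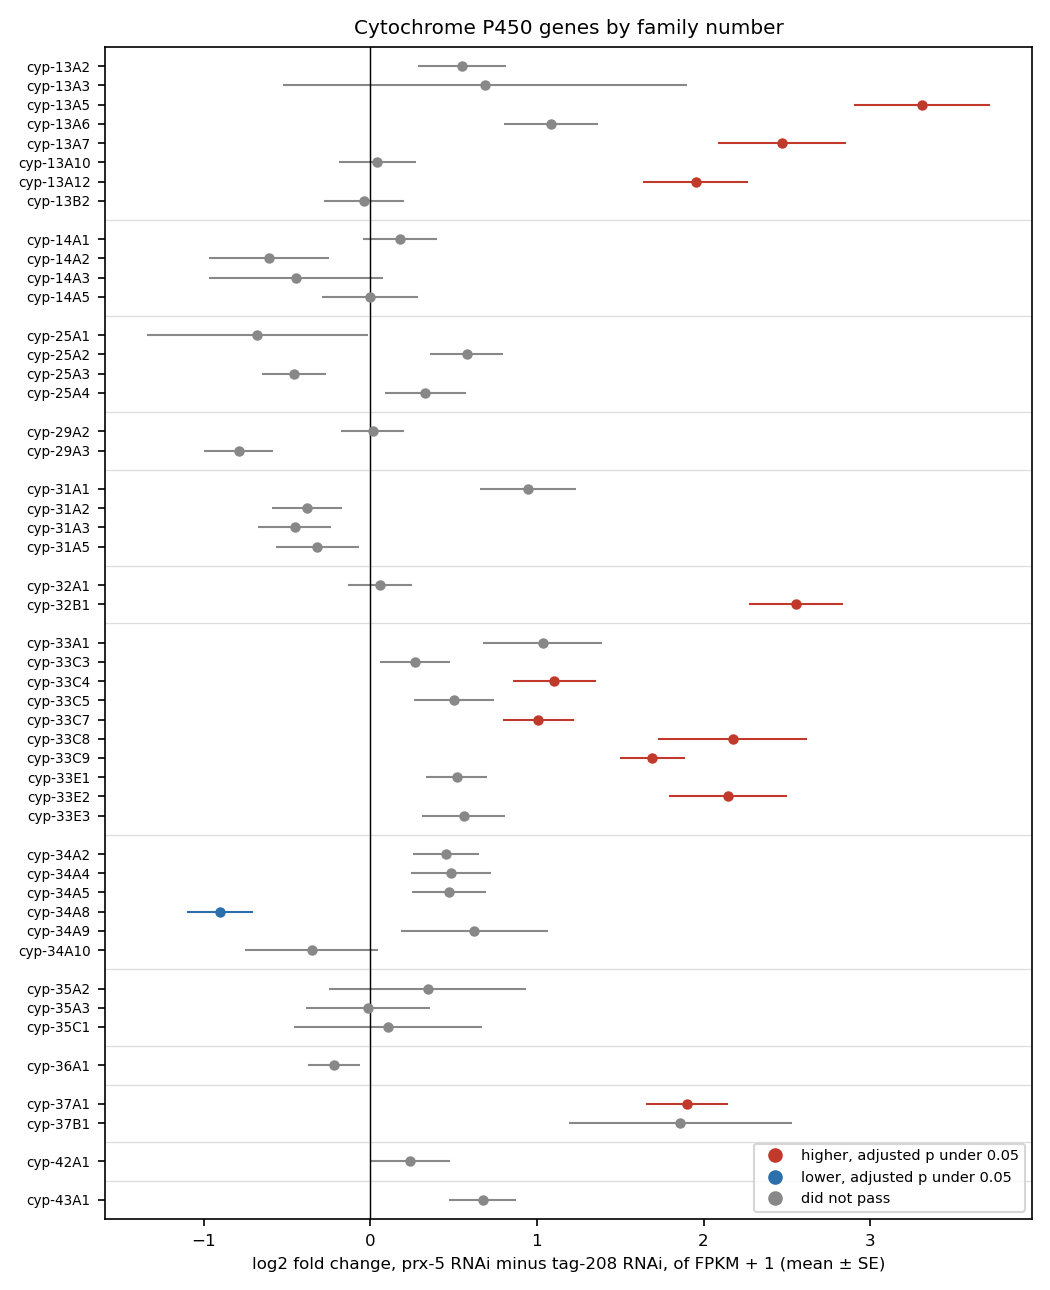
Log2 fold change of FPKM + 1, prx-5-labelled minus tag-208-labelled libraries, for the 48 tested P450 genes in order of family, as point and SE (n = 3 each). Red points passed the test as higher, the blue point as lower and grey points did not pass. All 10 cyp-33 genes lie right of 0, and the cyp-14, cyp-25, cyp-29, cyp-31 and cyp-35 families hold no called gene.

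The 11 calls lay in 5 of the 13 families. Those numbered 13, 33, 32 and 37 held all 10 higher calls, with 3 of 8, 5 of 10, 1 of 2 and 1 of 2 tested members, against 7.5% of all loci. Their median log2 fold changes were 0.89, 1.02, 1.31 and 1.88. These counts and medians include genes that passed the filter through the prx-5-labelled libraries, with tag-208-labelled means under 1 FPKM. They were cyp-13A6, cyp-13A7, cyp-13A10, cyp-13A12, cyp-32B1, cyp-33C5, cyp-33E3 and cyp-37B1. The cyp-13 median was 1.56 without prx-5-labelled replicate 1 or with sample weights, 1.46 with a pseudocount of 0.1 and 0.60 with quantile normalization. With a mean of at least 5 FPKM it was 2.00 over the 2 genes left, and the cyp-33 median was 1.69 over 5 genes. The families numbered 14, 25, 29, 31, 35, 36, 42 and 43 held no limma call in 20 tested genes, of which 3 were higher and 2 lower at an unadjusted p under 0.05 and 1 was higher and 3 were lower in the authors' deposited table. Over all loci 17.5% were higher and 4.45% lower at that p, and the authors' deposited table marked 8.72% as higher and 4.21% as lower. The family numbered 34 held the 1 lower call. By resemblance to vertebrate groups, 5 of 24 CYP2-like genes rose and 1 fell, 3 of 13 CYP3-like genes rose, and 2 of 11 CYP4-like genes rose, so calls occurred in all 3 groups, and 7.5% of all loci rose and 1.2% fell.

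**Figure D2:**
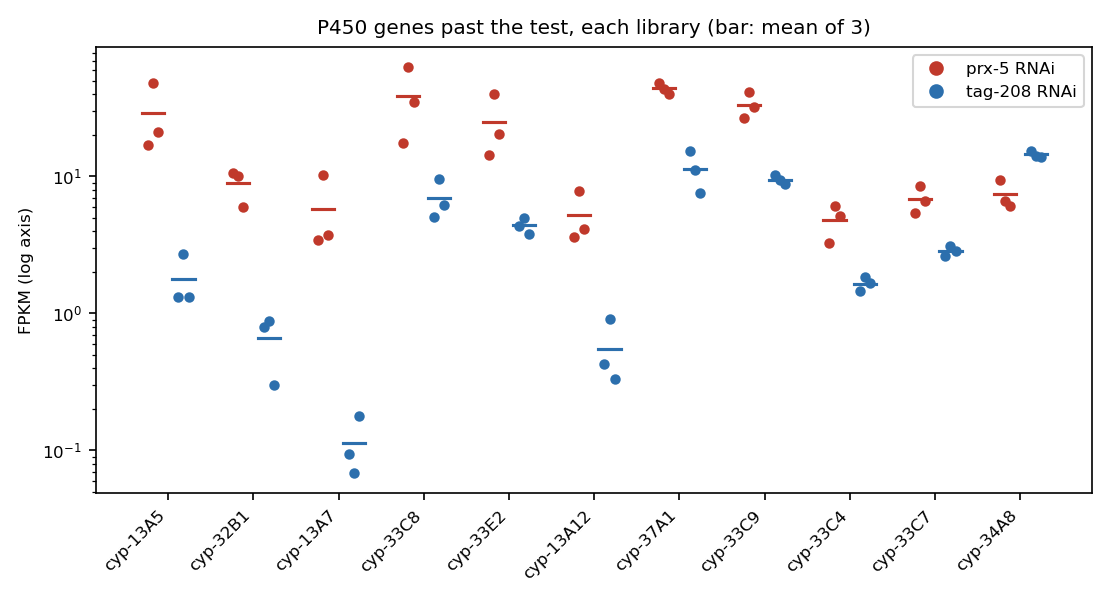
FPKM of the 11 called P450 genes in each library on a log axis, with prx-5-labelled libraries in red left of tag-208-labelled libraries in blue and the mean of each group as a bar. The groups do not overlap in any of the 11, and cyp-34A8 is the 1 gene with the tag-208-labelled values on top.

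The cyp-33 family had the most calls. Its best known member, cyp-33E2, makes eicosanoids from eicosapentaenoic acid in the pharynx. It measured 14.2, 40.1 and 20.4 FPKM in the prx-5-labelled libraries, against 4.31, 5.01 and 3.83 FPKM in the tag-208-labelled libraries. The groups did not overlap, and the means of 24.9 ± 13.5 and 4.39 ± 0.594 FPKM (SD, n = 3 each) stood 5.69-fold apart. Its log2 fold change was 2.15 ± 0.35 (SE), with a limma adjusted p of 0.0183. The gene (WBGene00018334) lies on the plus strand of chromosome IV, and its locus ran from 8612450 to 8614703 in coordinates that match the WBcel235 annotation. Its relatives cyp-33E1 and cyp-33E3 lie on the same stretch of the chromosome. For cyp-33E1 the values were 6.43, 7.03 and 7.46 FPKM in prx-5-labelled libraries, against 4.95, 4.88 and 3.89 FPKM in tag-208-labelled libraries (log2 0.52 ± 0.18, adjusted p = 0.148). For cyp-33E3 the means were 1.95 and 0.977 FPKM (log2 0.56 ± 0.25, adjusted p = 0.249). Both had groups that did not overlap, and neither passed.

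Of 6 tested cyp-33C genes, all of which lie on chromosome V, 4 rose. The gene cyp-33C8 (WBGene00019967, minus strand, 3800756 to 3803439) measured 17.5, 62.6 and 35.1 FPKM in the prx-5-labelled libraries, against 5.05, 9.64 and 6.19 FPKM in the tag-208-labelled libraries. Its lowest prx-5-labelled value was still above the highest tag-208-labelled value, and the log2 fold change was 2.17 ± 0.45 (limma adjusted p = 0.0320). The gene cyp-33C9 (WBGene00016860, minus strand, 3091776 to 3094411) measured 26.7, 41.1 and 32.1 FPKM in prx-5-labelled libraries, against 10.3, 9.42 and 8.74 FPKM in tag-208-labelled libraries. With the smallest standard error of the higher calls, it had a log2 fold change of 1.69 ± 0.19 (limma adjusted p = 0.00921).

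The other higher calls of the family were smaller. The gene cyp-33C4 (WBGene00018413, 2236263 to 2238165) had 3.29, 6.06 and 5.11 FPKM in prx-5-labelled libraries, against 1.45, 1.86 and 1.66 FPKM in tag-208-labelled libraries (log2 1.11 ± 0.25, limma adjusted p = 0.0400). The gene cyp-33C7 (WBGene00018260, 2250539 to 2252601) had 5.41, 8.57 and 6.64 FPKM in prx-5-labelled libraries, against 2.63, 3.09 and 2.88 FPKM in tag-208-labelled libraries (log2 1.01 ± 0.22, limma adjusted p = 0.0349). Both lie on the plus strand, and in both the groups did not overlap. A second row named cyp-33C4, outside the annotated gene (2238656 to 2240933), averaged 1.41 FPKM in prx-5-labelled and 0.739 FPKM in tag-208-labelled libraries. That row did not pass (log2 0.46 ± 0.24, limma adjusted p = 0.307) and was not counted. With any of 3 other scalings of the libraries, cyp-33C4, cyp-33C7 and cyp-33C8 no longer passed, at adjusted p between 0.0539 and 0.129.

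The remaining cyp-33 genes did not pass. The values of cyp-33A1 were 26.1, 13.8 and 10.9 FPKM in prx-5-labelled libraries, against 8.75, 8.81 and 4.78 FPKM in tag-208-labelled libraries. The groups did not overlap, but the prx-5-labelled values spread widely, and the log2 fold change of 1.03 ± 0.36 had an adjusted p of 0.144. The genes cyp-33C3 and cyp-33C5 had log2 fold changes of 0.27 ± 0.21 and 0.50 ± 0.24. In all 10 tested cyp-33 genes the prx-5-labelled values lay above the tag-208-labelled values, a pattern that 21.2% of all loci showed. Under quantile normalization 9 of the 10 kept a log2 fold change above 0.

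In the cyp-13 family 3 genes passed as higher. The gene cyp-13A5 (WBGene00011672, chromosome II, minus strand, 9798191 to 9800344) measured 16.9, 48.5 and 21.2 FPKM in prx-5-labelled libraries, against 1.33, 2.73 and 1.32 FPKM in tag-208-labelled libraries. Its means were 28.9 ± 17.1 and 1.79 ± 0.814 FPKM (SD, n = 3 each), 16.1-fold apart. The log2 fold change of 3.31 ± 0.41 was the largest of the tested P450 genes (limma adjusted p = 0.0104).

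A neighbour on the same cluster, cyp-13A7 (WBGene00000372, plus strand, 9803667 to 9807438), was close to undetected in the tag-208-labelled libraries. It measured 3.42, 10.3 and 3.73 FPKM in prx-5-labelled libraries, against 0.0943, 0.0684 and 0.180 FPKM in tag-208-labelled libraries (log2 2.47 ± 0.39, limma adjusted p = 0.0163). The deposited locus of cyp-13A7 is also that of cyp-13A8 on the opposite strand, so reads of the pair may have been split by the authors' counting. The locus row of cyp-13A8 had 0.753, 1.64 and 0.674 FPKM in prx-5-labelled libraries, against 0.135, 0.245 and 0.138 FPKM in tag-208-labelled libraries, and lay under the filter.

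The third, cyp-13A12 (WBGene00008810, chromosome III, plus strand, 13024664 to 13028019), is known as an effector of the EGL-9 and HIF-1 oxygen-sensing pathway in the locomotion response to reoxygenation. It measured 3.64, 7.86 and 4.10 FPKM in prx-5-labelled libraries, against 0.425, 0.906 and 0.330 FPKM in tag-208-labelled libraries. Its groups stood 9.39-fold apart by the means and did not overlap (log2 1.95 ± 0.32, limma adjusted p = 0.0179). Of that pathway, hif-1 itself had 62.6 ± 7.55 FPKM in prx-5-labelled libraries and 43.9 ± 1.61 FPKM in tag-208-labelled libraries (SD, n = 3 each) and did not pass (adjusted p = 0.0911), nor did egl-9 (adjusted p = 0.588).

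The other cyp-13 genes did not pass. The values of cyp-13A6 were 1.38, 2.83 and 1.42 FPKM in prx-5-labelled libraries, against 0.384, 0.383 and 0.206 FPKM in tag-208-labelled libraries. That gene came closest, a log2 fold change of 1.09 ± 0.28 and an adjusted p of 0.0607. The gene cyp-13A2 had means of 4.41 and 2.73 FPKM (log2 0.55 ± 0.27). The genes cyp-13A10 and cyp-13B2 had log2 fold changes of 0.04 ± 0.23 and -0.04 ± 0.24, and their groups overlapped. The locus of cyp-13A3 covered 3.35% of its gene, and its values ran from 0 to 23.1 FPKM in the prx-5-labelled libraries and from 0 to 5.66 FPKM in the tag-208-labelled libraries.

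The cyp-32 and cyp-37 families, both CYP4-like, had 2 tested genes each. The gene cyp-32B1 (WBGene00021167, chromosome V, minus strand, 2197980 to 2201287) measured 10.5, 10.2 and 5.99 FPKM in prx-5-labelled libraries, against 0.800, 0.885 and 0.302 FPKM in tag-208-labelled libraries. Its means were 13.4-fold apart, a log2 fold change of 2.56 ± 0.28 (limma adjusted p = 0.00868). It was the 1 called P450 gene that passed with each of the 6 libraries left out in turn. Its family member cyp-32A1 had 2.88 ± 0.223 FPKM in prx-5-labelled libraries and 2.73 ± 0.248 FPKM in tag-208-labelled libraries (SD, n = 3 each), a log2 fold change of 0.06 ± 0.19 whose sign turned under each of 3 other scalings.

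Of the called P450 genes, the highest mean over the 6 libraries was that of cyp-37A1 (WBGene00008499, chromosome II, minus strand, 14010792 to 14016954). It measured 48.0, 43.7 and 39.8 FPKM in prx-5-labelled libraries, against 15.4, 11.2 and 7.60 FPKM in tag-208-labelled libraries. The prx-5-labelled values agreed closely with each other, and the log2 fold change was 1.90 ± 0.25 (limma adjusted p = 0.0117). The deposited locus also holds the gene F01D5.8. Its relative cyp-37B1 had 13.1, 2.04 and 1.08 FPKM in prx-5-labelled libraries, against 0.341, 0.236 and 0.119 FPKM in tag-208-labelled libraries. The groups did not overlap, but replicate 1 stood far above the other prx-5-labelled values, and the log2 fold change of 1.86 ± 0.67 did not pass (adjusted p = 0.157).

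**Figure D3:**
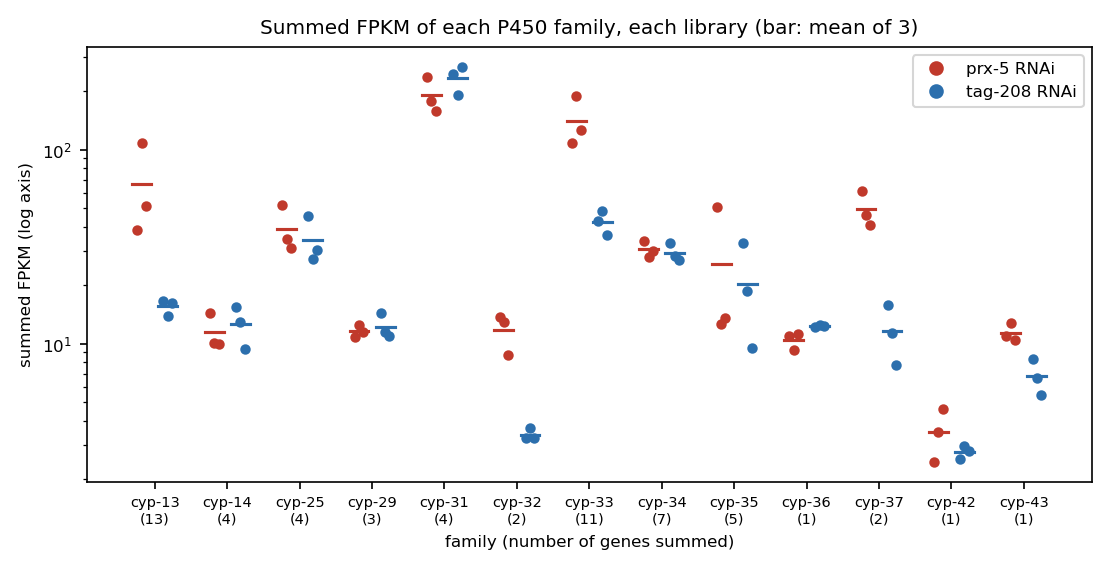
Summed FPKM of each P450 family in each library on a log axis, with the number of genes summed under each family, prx-5-labelled libraries in red left of tag-208-labelled libraries in blue, and group means as bars. The sums of cyp-13, cyp-32, cyp-33, cyp-37 and cyp-43 do not overlap and lie higher in the prx-5-labelled libraries, cyp-36 lies lower, and the largest sum, cyp-31, overlaps.

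In contrast, cyp-34A8 (WBGene00015043, chromosome V, minus strand, 3964706 to 3967746) fell. It measured 9.46, 6.61 and 6.13 FPKM in prx-5-labelled libraries, against 15.4, 14.2 and 13.8 FPKM in tag-208-labelled libraries, a log2 fold change of -0.90 ± 0.20 (limma adjusted p = 0.0382). The adjacent cyp-34A9 did not pass. This gene was named in screens for genes downstream of the insulin-signalling factor DAF-16. It had 10.8, 3.22 and 3.10 FPKM in prx-5-labelled libraries, against 3.98, 2.59 and 2.13 FPKM in tag-208-labelled libraries (log2 0.62 ± 0.44, adjusted p = 0.462). The high value of replicate 1 set it apart from the other prx-5-labelled libraries, and the groups overlapped. The genes cyp-34A2, cyp-34A4 and cyp-34A5 had log2 fold changes of 0.45 ± 0.20, 0.48 ± 0.24 and 0.47 ± 0.22, and cyp-34A10, with a locus over 21.3% of its gene, had -0.35 ± 0.40. None of these 4 passed.

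None of the 3 tested cyp-35 genes passed limma, reached an unadjusted p under 0.05 or was marked in the authors' deposited table. Several of this family are induced by foreign compounds and have been linked to fat storage. The values of cyp-35A2 were 32.4, 9.06 and 8.82 FPKM in prx-5-labelled libraries, against 19.4, 11.7 and 5.22 FPKM in tag-208-labelled libraries (log2 0.34 ± 0.59, adjusted p = 0.765). Those of cyp-35C1 were 14.01, 2.90 and 3.24 FPKM in prx-5-labelled libraries, against 8.23, 4.29 and 3.08 FPKM in tag-208-labelled libraries (log2 0.11 ± 0.56, adjusted p = 0.933). In both genes replicate 1 was the highest in each group, and the groups overlapped. The gene cyp-35A3 had 2.02, 0.307 and 0.905 FPKM in prx-5-labelled libraries, against 1.49, 1.03 and 0.527 FPKM in tag-208-labelled libraries (log2 -0.01 ± 0.37). The values of cyp-35A5 were 1.54, 0.181 and 0.296 FPKM in prx-5-labelled libraries, against 1.99, 0.900 and 0.271 FPKM in tag-208-labelled libraries. Like cyp-35D1, which in worms breaks down the drug thiabendazole, it lay under the filter. The family median of 0.11 turned to -0.01 with the authors' constants and to -0.20 with quantile normalization. It was -0.59 with sample weights, -0.38 without prx-5-labelled replicate 1, -0.15 without tag-208-labelled replicate 3 and 0.59 without tag-208-labelled replicate 1.

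The most abundant P450 genes belonged to cyp-31, and none of its 4 genes passed. The enzymes CYP-31A2 and CYP-31A3 act with EMB-8 to make a lipid of the eggshell barrier. The values of cyp-31A2 were 82.6, 61.8 and 55.3 FPKM in prx-5-labelled libraries, against 88.1, 70.2 and 101 FPKM in tag-208-labelled libraries (log2 -0.38 ± 0.21, adjusted p = 0.356). Those of cyp-31A3 were 60.3, 43.01 and 38.7 FPKM in prx-5-labelled libraries, against 66.6, 52.2 and 75.4 FPKM in tag-208-labelled libraries (log2 -0.45 ± 0.22, adjusted p = 0.289). The third, cyp-31A5, had 83.9, 54.3 and 47.5 FPKM in prx-5-labelled libraries, against 82.4, 60.4 and 85.0 FPKM in tag-208-labelled libraries (log2 -0.32 ± 0.25, adjusted p = 0.508). These 3 genes are near-identical copies, so how the authors' counting divided reads among them is uncertain, and the locus of cyp-31A5 also holds Y62E10A.19. Their values followed each other across the libraries.

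The annotated pseudogene cyp-31A1 differed from these copies. It had 8.77, 18.9 and 16.1 FPKM in prx-5-labelled libraries, against 6.96, 7.62 and 5.78 FPKM in tag-208-labelled libraries (log2 0.95 ± 0.29, adjusted p = 0.0977). Its deposited locus also holds gldi-10 and C01F6.14, so the value may belong to those genes. A second row named cyp-31A3, of 98 bases and outside the annotated gene, had 0, 0 and 9.35 FPKM in prx-5-labelled libraries, against 23.5, 31.98 and 154 FPKM in tag-208-labelled libraries, and passed as lower (limma adjusted p = 0.0441). It was not counted as a P450 gene. Oocyte and eggshell markers, from the tissue in which these enzymes act, had summed FPKM of 2696, 2035 and 1724 in prx-5-labelled libraries, against 2609, 2019 and 2849 in tag-208-labelled libraries.

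Partners of CYP-31A in eggshell lipid synthesis mostly did not pass, with 1 of 6 tested genes higher and 0 lower. Over all loci tested, 7.5% were higher and 1.2% lower. The authors' deposited table marked 1 of the 6 as higher and 1 as lower, against 8.72% and 4.21% of its loci. The median of the 6 was -0.06 on the log2 scale. The acetyl-CoA carboxylase pod-2, which makes the building block of fatty acids, averaged 129.5 ± 29.1 FPKM in prx-5-labelled libraries and 50.03 ± 2.89 FPKM in tag-208-labelled libraries (SD, n = 3 each), a log2 fold change of 1.33 ± 0.19 (limma adjusted p = 0.0140). The fatty acid synthase fasn-1 had a log2 fold change of -0.24 ± 0.14 and the eggshell permeability gene perm-1 one of -0.47 ± 0.23. The reductase gene emb-8 had 107, 156 and 128 FPKM in prx-5-labelled libraries, against 88.9, 87.2 and 97.6 FPKM in tag-208-labelled libraries. Its groups did not overlap, but it did not pass (log2 0.49 ± 0.17, adjusted p = 0.152), and neither did the other measured electron donor, the cytochrome b5 gene cytb-5.1 (log2 0.59 ± 0.22, adjusted p = 0.164).

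The cyp-29 genes did not follow cyp-33E2, with which cyp-29A3 shares a role in eicosanoid synthesis. The values of cyp-29A3 were 1.20, 1.21 and 1.18 FPKM in prx-5-labelled libraries, against 3.20, 2.77 and 2.45 FPKM in tag-208-labelled libraries. The groups did not overlap, and the log2 fold change of -0.79 ± 0.21 had an adjusted p of 0.0635. It passed with quantile normalization, without the variance trend and with sample weights, at limma adjusted p of 0.0449, 0.0331 and 0.00625. It did not pass with the replicate block (0.106) or with any 1 library left out (0.0736 to 0.229). The values of cyp-29A2 were 8.11, 9.87 and 8.88 FPKM in prx-5-labelled libraries, against 10.8, 8.23 and 7.71 FPKM in tag-208-labelled libraries (log2 0.01 ± 0.19, adjusted p = 0.975). Under each of 3 scalings that sign was the opposite.

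Enzymes before and after P450s in eicosanoid synthesis rose in 5 of 6 tested genes, against 7.5% of all loci, and the median of the 6 was 1.16 on the log2 scale. The desaturases FAT-1 to FAT-4 build the polyunsaturated fatty acids that P450s oxidise, and the epoxide hydrolases CEEH-1 and CEEH-2 act on the epoxides formed. The desaturase gene fat-3 averaged 123 ± 20.4 FPKM in prx-5-labelled libraries and 45.2 ± 0.887 FPKM in tag-208-labelled libraries (SD, n = 3 each), a log2 fold change of 1.41 ± 0.16 (limma adjusted p = 0.00913). The genes fat-2 and fat-4 rose by 1.52 ± 0.30 and 1.04 ± 0.20 on the log2 scale. The hydrolase gene ceeh-2 averaged 24.5 ± 1.64 FPKM in prx-5-labelled libraries and 9.67 ± 2.22 FPKM in tag-208-labelled libraries (log2 1.28 ± 0.19, limma adjusted p = 0.0151), and ceeh-1 rose by 0.93 ± 0.18. The gene fat-1 did not pass (log2 0.34 ± 0.15, adjusted p = 0.256).

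The cyp-14 and cyp-25 families had 4 tested genes each and no limma call. At an unadjusted p under 0.05, 1 cyp-25 gene was higher and 1 lower, and no gene of either family was marked in the authors' deposited table. The values of cyp-14A5 were 5.14, 2.59 and 3.75 FPKM in prx-5-labelled libraries, against 4.42, 4.48 and 2.56 FPKM in tag-208-labelled libraries (adjusted p = 0.997). The genes cyp-14A1, cyp-14A2 and cyp-14A3 had log2 fold changes of 0.18 ± 0.22, -0.61 ± 0.36 and -0.44 ± 0.52. In family 25, cyp-25A2 was the most abundant, at 24.4 ± 3.68 FPKM in prx-5-labelled libraries and 16.2 ± 4.37 FPKM in tag-208-labelled libraries (SD, n = 3 each, log2 0.58 ± 0.22, adjusted p = 0.182). The log2 fold changes of cyp-25A1, cyp-25A3 and cyp-25A4 were -0.68 ± 0.66, -0.46 ± 0.19 and 0.33 ± 0.24.

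Families with 1 gene did not pass either. The gene cyp-36A1, which acts in the EGL-9 and HIF-1 pathway, had 10.98, 9.29 and 11.2 FPKM in prx-5-labelled libraries, against 12.2, 12.5 and 12.3 FPKM in tag-208-labelled libraries. The prx-5-labelled values lay below the others, a log2 fold change of -0.22 ± 0.16 (adjusted p = 0.466), and the deposited locus also holds figo-1. The gene cyp-43A1, with C41G11.1 in its locus, had 10.9, 12.7 and 10.4 FPKM in prx-5-labelled libraries, against 8.36, 6.63 and 5.41 FPKM in tag-208-labelled libraries (log2 0.68 ± 0.20, adjusted p = 0.0918). The gene cyp-42A1 had a log2 fold change of 0.24 ± 0.24, which turned to -0.06 with quantile normalization.

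None of the 10 genes under the filter passed limma when the filter was dropped, while the authors' deposited table marked 2 of them as higher, cyp-13A1 (q = 0.00264) and cyp-33D3 (q = 0.0434). Without the filter cyp-13A1 had the largest log2 fold change, at 1.17 ± 0.30 (limma adjusted p = 0.0634). It measured 0.798, 2.55 and 2.00 FPKM in prx-5-labelled libraries, against 0.184, 0.315 and 0.0729 FPKM in tag-208-labelled libraries, and with prx-5-labelled replicate 1 left out it was tested and passed. The pseudogene cyp-13A9 and the genes cyp-13A8, cyp-13A11, cyp-29A4 and cyp-33D3 also had prx-5-labelled values above all tag-208-labelled values. Among all loci past the filter, 21.2% showed that pattern. The genes cyp-13A4, cyp-34A1, cyp-35A5 and cyp-35D1 had groups that overlapped.

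The 7 genes with differing labels have group values from the authors' deposited table alone. In the authors' deposited table cyp-14A4 was higher, at 2.20 FPKM for the prx-5-labelled group and 0.293 FPKM for the tag-208-labelled group (log2 2.91, q = 0.0210). The authors' deposited table gave cyp-13B1, cyp-23A1, cyp-33D1, cyp-34A6, cyp-34A7 and cyp-35B1 no significant difference, with q between 0.348 and 0.880. A further 12 symbols of the annotation, cyp-35A1, cyp-35A4 and cyp-44A1 among them, were not analysed here.

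Summed over all 58 genes, P450 RNA was 643, 657 and 506 FPKM in the prx-5-labelled libraries, against 487, 388 and 439 FPKM in the tag-208-labelled libraries. In each tag-208-labelled library the largest family sum was that of cyp-31, which came to 236, 178 and 158 FPKM in prx-5-labelled libraries, against 244, 190 and 267 FPKM in tag-208-labelled libraries. Without cyp-31 the sums were 407, 479 and 349 FPKM in prx-5-labelled libraries, against 243, 197 and 171 FPKM in tag-208-labelled libraries. The cyp-33 sum was 108, 189 and 125 FPKM in prx-5-labelled libraries, against 43.05, 48.1 and 36.3 FPKM in tag-208-labelled libraries. It ranked below the cyp-31 sum in 5 of 6 libraries and just above it in prx-5-labelled replicate 2.

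Which replicate held the highest value differed among the P450 genes, without a clean separation of the families. Of the 18 tested cyp-13 and cyp-33 genes, 13 had their highest prx-5-labelled value in replicate 2, against 25.2% of all loci. Another 3 had it in replicate 1, against 45.3% of all loci. Of the 9 tested cyp-34 and cyp-35 genes, 6 had their highest prx-5-labelled value in replicate 1. Among the others, cyp-34A4 and cyp-34A5 had it in replicate 3 and cyp-34A10 in replicate 2. Of the same 9 genes, 8 had their highest tag-208-labelled value in replicate 1, against 28.8% of all loci. For cyp-35A2, replicate 1 was 3.63 times the mean of the other 2 prx-5-labelled libraries and 2.28 times that of the other 2 tag-208-labelled libraries. For cyp-25A1 these ratios were 6.15 and 2.09, and for cyp-14A3 they were 7.62 and 3.89. The summed intestine markers were highest in replicate 2 of each group. The pairs of families were chosen after the values were seen, and libraries of the same number are not known to share a culture.

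**Figure D4:**
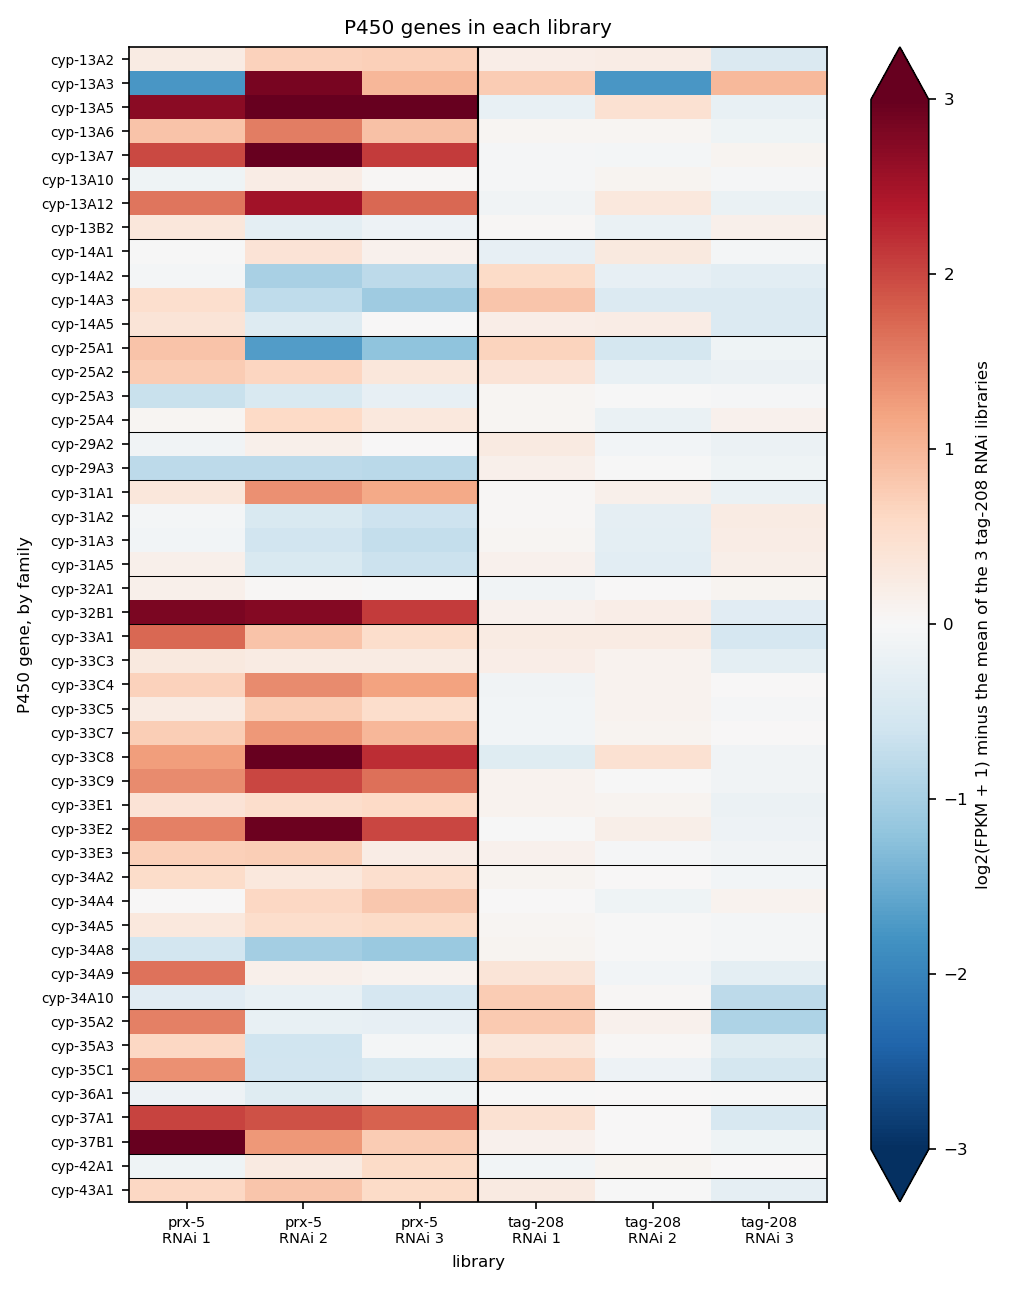
Log2(FPKM + 1) of the 48 tested P450 genes in each library minus the mean of the 3 tag-208-labelled libraries, as colour (values beyond the scale take its end colours), with families parted by lines. In the prx-5-labelled libraries, most cyp-13 and cyp-33 genes are darkest red in replicate 2, while cyp-35A2, cyp-35C1, cyp-34A9 and cyp-37B1 are darkest red in replicate 1.

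Many P450 genes lie next to each other, and calls were mixed within these clusters (at least 3 genes, with gaps of at most 50 kb). The counts below stand beside 7.5% of all loci higher and 1.2% lower. In the 28.3 kb cluster on chromosome II from cyp-13A1 to cyp-13A8, 2 of 5 tested genes rose, and the nearest tested loci outside, T10B9.9 and ZK938.1, did not pass (log2 0.37 ± 0.31 and -0.69 ± 0.52). In the 54.6 kb stretch on chromosome V from cyp-32B1 to cyp-33C7, 3 of 5 tested P450 genes rose. The other 10 tested loci inside that stretch, most of them nuclear hormone receptor genes, had a median log2 fold change of 0.62. Of these, nhr-18 rose by 1.18 ± 0.18 and nhr-103 by 0.86 ± 0.20, so change in that stretch was not limited to P450 genes.

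In the 34.7 kb cluster on chromosome V from cyp-35A5 to cyp-34A10, cyp-34A8 fell while the other 4 tested genes did not pass, and cyp-34A6 and cyp-34A7, which lie between cyp-34A5 and cyp-34A8, were left out for their differing labels. On chromosome IV, cyp-33E2 rose while 5 tested loci of other genes between it and cyp-33E1 did not pass. Next to cyp-33E1 outside that cluster, C49C8.5 rose by 2.09 ± 0.42 on the log2 scale (limma adjusted p = 0.0302). The cyp-25A cluster on chromosome III and the cyp-14A cluster on the X chromosome held no call in 4 and 3 tested genes. By chromosome, 5 of 23 tested P450 genes rose and 1 fell on V. On II 3 of 7 rose, on III 1 of 5 and on IV 1 of 7. None of the 5 tested on X and the 1 on I passed. Over all loci tested, 7.5% rose and 1.2% fell.

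**Figure D5:**
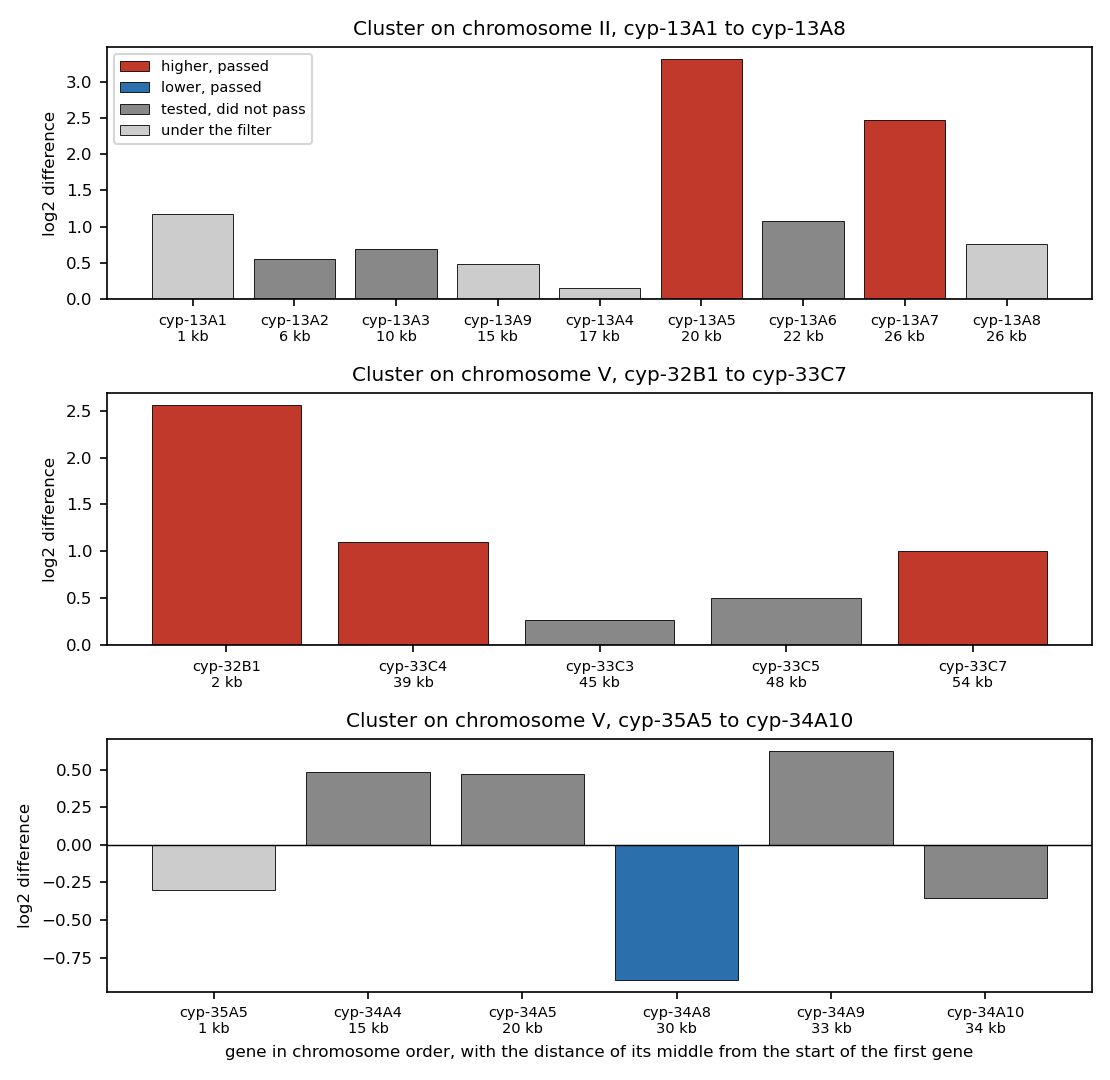
Log2 fold change (prx-5-labelled minus tag-208-labelled, on log2(FPKM + 1)) of the P450 genes of 3 clusters in chromosome order, with the distance of each gene's middle from the start of the first gene. Red and blue bars passed as higher and lower, dark grey bars were tested and did not pass, and light grey bars lay under the filter and come from the fit without it. Each cluster holds called genes and genes that did not pass, such as cyp-34A8 (-0.90) drawn next to cyp-34A9 (0.62).

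The regulators tied to detoxification genes were mostly not called, with 2 of 16 tested genes higher (12.5%, against 7.5% of all loci) and 0 lower. The prx-5-labelled values lay above all tag-208-labelled values in 11 of the 16, against 21.2% of all loci, and their median was 0.33 on the log2 scale. The nuclear receptor gene nhr-176, which controls cyp-35D1 in the response to thiabendazole, averaged 12.7 ± 2.87 FPKM in prx-5-labelled libraries and 3.95 ± 1.17 FPKM in tag-208-labelled libraries (SD, n = 3 each), a log2 fold change of 1.47 ± 0.25 (limma adjusted p = 0.0206). The level of cyp-35D1 itself was 0.794, 0.182 and 0.261 FPKM in prx-5-labelled libraries, against 1.76, 0.659 and 0.335 FPKM in tag-208-labelled libraries. The intestinal GATA factor gene elt-2, also on the intestine marker list, rose by 1.72 ± 0.36 (limma adjusted p = 0.0336). The sterol and xenobiotic receptor gene nhr-8 had a log2 fold change of 1.25 ± 0.33 and did not pass (adjusted p = 0.0635).

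Of 4 tested genes tied to the steroid hormone dafachronic acid, daf-36, strm-1, daf-12 and din-1, 1 rose, against 7.5% of all loci. The oxygenase gene daf-36 acts at the first step of the synthesis of the hormone. It averaged 29.5 ± 2.18 FPKM in prx-5-labelled libraries and 11.3 ± 3.92 FPKM in tag-208-labelled libraries (SD, n = 3 each). Its log2 fold change was 1.36 ± 0.25 (limma adjusted p = 0.0236). The gene daf-9, a P450 of the last step that does not carry a cyp- name, had 0.415, 1.72 and 1.52 FPKM in prx-5-labelled libraries, against 0.637, 1.32 and 0.217 FPKM in tag-208-labelled libraries. It lay under the filter, and its groups overlapped.

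Other families that modify or export foreign compounds also held calls, beside 7.5% of all loci higher and 1.2% lower, and differences between the families were not tested. Of 49 tested glucuronosyltransferase (ugt) genes 11 rose and 3 fell. Among them, ugt-18 had 71.1 ± 43.4 FPKM in prx-5-labelled libraries and 0.169 ± 0.0759 FPKM in tag-208-labelled libraries (SD, n = 3 each, log2 5.70 ± 0.52, limma adjusted p = 0.00539). This gene passed the filter of 1 FPKM only through the prx-5-labelled libraries. Of 36 glutathione transferase (gst) genes 5 rose and 1, gst-4, fell (log2 -0.92 ± 0.22), and gst-6 rose by 2.95 ± 0.39. Of 23 carboxylesterase (cest) genes 11 rose and 0 fell, with cest-12 up by 2.64 ± 0.25. Of 5 flavin monooxygenase (fmo) genes 2 rose, fmo-1 by 1.63 ± 0.32 and fmo-2 by 1.53 ± 0.28. Of 10 P-glycoprotein (pgp) genes 2 rose, pgp-9 by 2.18 ± 0.39 and pgp-1 by 2.14 ± 0.26, and of 26 short-chain dehydrogenase (dhs) genes 4 rose. The median log2 fold changes were 0.45 for ugt, 0.07 for gst, 0.76 for cest, 0.59 for fmo, 0.34 for pgp and -0.03 for dhs, against 0.46 for the P450 genes. Members that, like ugt-18, passed the filter through 1 group only were not counted apart in these families. Their values are part of these counts and medians.

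The authors' deposited table called more P450 genes from the same 6 libraries. Of the 48 tested genes, the authors' deposited table marked 14 as higher and 4 as lower, against 8.72% and 4.21% of all loci in it, and of all 58 genes it marked 16 as higher and 4 as lower. These included all 11 limma calls and 7 others, cyp-13A6, cyp-31A1, cyp-33A1 and cyp-37B1 as higher and cyp-29A3, cyp-31A2 and cyp-31A3 as lower. For cyp-31A2 the authors' deposited table gave a log2 fold change of -0.52 with q = 0.0491, and for cyp-37B1 one of 4.36 with q = 0.00101.

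The number of P450 calls depended on single libraries. Without prx-5-labelled replicate 1, all 11 calls were kept and 3 genes, cyp-13A1, cyp-31A1 and cyp-34A4, were added. Without prx-5-labelled replicate 2 or 3, 5 and 4 of the 11 calls were kept, and without tag-208-labelled replicate 1, 2 or 3, 4, 8 and 2 were kept, in fits with fewer samples. The genes cyp-13A5, cyp-33C9 and cyp-37A1 passed in 5 of the 6 fits. Among the 38 tested genes whose locus covers at least 50% of the gene and holds no other gene, 8 rose and 1 fell. Over all loci tested, without that limit on the locus, 7.5% rose and 1.2% fell.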

How the data were processed

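Whole-worm total RNA was sequenced in 6 libraries, 3 labelled prx-5 RNAi and 3 labelled tag-208 RNAi. Per the file headers, the authors deposited FPKM per locus and library, and a comparison table with FPKM per group, a log2 fold change, a test statistic (a score), a p-value and a q-value. CASAVA, Bowtie, Cufflinks and Cuffdiff are named in the submitters' processing notes. Their versions, the strand setting and the genome build are not given in the sources used here, so overlapping genes cannot be told apart. Locus starts, moved to counting from 1, equalled those of the WBcel235 annotation more often (344 loci) than unmoved (179).

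Rows were joined by position. Rows with labels that differed between tables (913), or whose libraries missed the authors' group values by more than 2% after 1 constant per library (97), were left out, which left 14786. Missing were 33 values with a failed status, of which 23 were listed at 0. FPKM as deposited were taken as log2(FPKM + 1), loci that averaged 1 FPKM or more were compared with limma 3.58.1 (R 4.3.3) with a variance trend and no block, and p-values got a Benjamini-Hochberg adjustment over all 13342 loci, with a threshold of 0.05. The limma step was tested on simulated data. Without read counts no counting interval could be given, and the depth of each library is unknown. P-values set the difference between the groups against the spread of these 3 biological replicates a group. In the limma fit that spread was drawn toward the variance trend over all loci tested.

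P450 genes were those with a cyp- symbol, and where a gene had 2 rows, the one that overlaps the annotated gene more was used. Values in every library are given for all calls, the 5 largest changes not past the test, the 5 highest levels and a list of genes named in the literature, and up to 4 called genes a pathway list. The members, pathway lists and markers were chosen with earlier results of these data known. Alternatives were 2 pseudocounts, 2 filters, 3 scalings, 2 variance models, a replicate block, each library left out, all loci as listed, the authors' table, and, chosen after seeing the data, only those loci that span 50% or more of the gene and hold no other.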

Additional observations from a re-analysis of the deposited data

How the results depend on the processing

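Of the 11 P450 calls, all were kept with both other pseudocounts, no filter, no variance trend, sample weights, the replicate block and all loci as listed. With median-ratio scaling, the authors' constants or quantile normalization, 8 were kept, without cyp-33C4, cyp-33C7 and cyp-33C8. These scalings moved the log2 fold changes of all loci by a median of -0.11, -0.13 and -0.26, and the P450 median was then 0.37, 0.36 and 0.18. A mean of at least 5 FPKM left 21 P450 genes tested, 5 higher and 1 lower, beside 804 higher and 162 lower of 8845 loci. With sample weights 21 of 48 P450 genes were higher and 9 lower, beside 3206 higher and 2011 lower of 13342 loci. Lower calls numbered 2 with quantile normalization, 2 without the variance trend and 4 in the authors' deposited table. With 1 library left out, 2 to 13 P450 genes were higher and 0 to 1 lower.

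The number of all loci higher was 511 with median-ratio scaling, 519 with the authors' constants, 531 with quantile normalization and 3206 with sample weights, and from 62 to 1460 with 1 library left out, against 1000. Lower loci numbered 2011 with sample weights, 411 with all loci as listed and from 15 to 388 with 1 library left out, against 160. Beside 7.5% higher and 1.2% lower of all loci tested, 44 of 182 pathway genes were higher and 4 lower. Higher ones numbered 29 with quantile normalization, 79 with sample weights and from 4 to 53 with 1 library left out, and lower ones 25 with sample weights and from 0 to 5.

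Among the named P450 genes followed through these alternatives, signs turned in 5 (cyp-32A1 and cyp-42A1 are given with their values above), none of which passed the test. The log2 fold change of cyp-29A2 was -0.090 with median-ratio scaling, -0.11 with the authors' constants, -0.30 with quantile normalization and -0.025 with sample weights. That of cyp-35A2 was -4.44e-05 with quantile normalization and -0.49 with sample weights, and that of cyp-35C1 was -0.011 with the authors' constants, -0.20 with quantile normalization and -0.78 with sample weights. With 1 library left out, the range was -0.21 to 0.19 for cyp-14A5, -0.073 to 0.15 for cyp-29A2, -0.24 to 0.74 for cyp-35A2, -0.20 to 0.28 for cyp-35A3 and -0.52 to 0.45 for cyp-35C1. Of the other values of named genes, 367 kept direction and side of the threshold, 41 lost the call and 14 gained it. The cause was not tested.

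The replicate numbers are not said to pair libraries. Deviations of same-numbered libraries from their group means correlated at 0.29, 0.23 and -0.12. Those of differently numbered libraries correlated at -0.446 to 0.33. With the replicate block, 11 P450 genes were higher and 1 lower, cyp-33A1 being added (adjusted p = 0.0420), and of all loci 1043 were higher and 210 lower. Low levels limit what could be shown for the 10 genes under the filter, and without read counts no detection limit could be set.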
